A study of Mus musculus with 7 samples.

Results

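The checkpoint and co-stimulatory receptor genes Cd226, Tigit, Cd96, Icos, Ctla4, Pdcd1, Lag3, Havcr2, Cd160 and Cd200r1 were taken by their gene symbols, and all 10 had 1 probe on the array, of 19752 genes measured. The cells were labelled as natural killer (NK) cells with NK1.1 as their marker, and came from spleens of male C57BL/6 mice at 6 weeks of age. Negative selection, which removes other cell types, was the stated enrichment. In the IL2 group (4 arrays, replicates 1 to 4) they were kept in vitro with interleukin 2, a growth factor of lymphocytes, at 250 U/ml, and in the untreated group (3 arrays, replicates 2 to 4) without it, each for 8 h. Whether replicates are separate mice or separate cultures is not labelled, and the p-values measure the spread of these samples, which may be technical. Each value is an RMA intensity of an Affymetrix Mouse Gene 1.0 ST probe set on the log2 scale, where a difference of 1 is a 2-fold difference.

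These receptors sit on T cells and NK cells and tune how strongly the cell answers a target. CD226, TIGIT and CD96 bind ligands of the nectin family on other cells, CD226 as an activating receptor and TIGIT as an inhibitory one that competes for the same ligands. ICOS, CTLA-4 and PD-1 belong to the CD28 family, in which ICOS co-stimulates and CTLA-4 and PD-1 restrain. LAG-3, TIM-3 (the product of Havcr2), CD160 and CD200R1 bind other ligands, among them MHC class II for LAG-3 and CD200 for CD200R1.

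Promoter windows of GRCm38.p6, each running from 250 bases before to 50 bases after an annotated start, were held by the RefSeq promoter table for 6 of the 10 genes. There were 7 windows, of Tigit, Cd96, Ctla4, Pdcd1 and Havcr2 and a pair of Cd160. Windows of Tigit and Cd96 are printed to set the nectin-binding receptor gene that rose beside one that did not pass the test. Cd160 was added because its call turned on how the arrays were grouped. Of its pair, the window printed is the one with matches to the motifs below. The other Cd160 window, of a start further upstream, held none. All windows were searched on both strands for a STAT5-type site (TTCNNNGAA, the motif class bound by the transcription factor that IL2 activates), for an AP-1 site (TGANTCA) and for a T-box core (GGTGTGA), and matches are in capitals. Each is written 5′ to 3′ as RefSeq gives it for the gene's strand, which is the minus strand for these 3.
Tigit, chr16:43664135-43664434: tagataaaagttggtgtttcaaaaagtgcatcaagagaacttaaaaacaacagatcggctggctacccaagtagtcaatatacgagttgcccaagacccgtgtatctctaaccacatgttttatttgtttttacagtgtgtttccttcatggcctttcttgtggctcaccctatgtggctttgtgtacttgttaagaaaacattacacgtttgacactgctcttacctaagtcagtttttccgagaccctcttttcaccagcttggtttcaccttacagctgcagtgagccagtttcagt
Cd96, chr16:46120199-46120498: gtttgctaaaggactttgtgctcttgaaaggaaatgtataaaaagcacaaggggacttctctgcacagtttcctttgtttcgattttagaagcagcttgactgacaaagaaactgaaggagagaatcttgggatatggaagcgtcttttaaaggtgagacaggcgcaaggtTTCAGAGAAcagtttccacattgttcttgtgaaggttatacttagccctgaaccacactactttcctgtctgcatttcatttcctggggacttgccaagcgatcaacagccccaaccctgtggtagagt
Cd160, chr3:96814472-96814771: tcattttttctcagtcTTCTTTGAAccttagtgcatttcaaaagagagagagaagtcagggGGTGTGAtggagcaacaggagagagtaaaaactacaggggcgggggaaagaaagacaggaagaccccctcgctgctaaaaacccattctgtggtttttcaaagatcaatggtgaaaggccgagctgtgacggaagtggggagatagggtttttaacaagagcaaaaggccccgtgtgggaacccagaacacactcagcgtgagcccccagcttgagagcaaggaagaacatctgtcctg
The Tigit window held none of the 3 motifs. It lies inside the RefSeq span of the gene, and the outer end of that span had no window and was not searched. The Cd96 window held 1 STAT5-type site that began 79 bases before the start. The Cd160 window printed held a STAT5-type site 234 bases and a T-box core 189 bases before the start. Havcr2 had an AP-1 site 200 bases before its start, and the other Cd160 window, Ctla4 and Pdcd1 had none of the 3. Of all 32851 promoter windows in the table, 8.3% held the STAT5-type site, 7.81% the AP-1 site and 3.98% the T-box core. A match describes the letters and is not evidence of binding.

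The arrays had median intensities of 121 to 131 on the linear scale, on which no value is 0. Their upper quartiles differed more, from 278 on untreated replicate 3 to 350 on IL2 replicate 4. The defining markers of the labelled NK cells were measured well above the median gene in both groups, with Ncr1 at 11.46 ± 0.07 with IL2 (SD, n = 4) and 9.28 ± 0.17 untreated (n = 3), and Klrb1c, which encodes NK1.1, at 10.26 ± 0.36 and 8.55 ± 0.43. Markers of other cells were measured too, such as the B cell gene Cd79b at 12.12 ± 0.07 with IL2 and 12.41 ± 0.09 untreated and the myeloid gene Lyz2 at 10.89 ± 0.23 and 12.66 ± 0.11. By limma 2.08% of all genes were higher with IL2 and 0.901% lower, at an adjusted p under 0.05. Of 10 NK cell markers, 6 were higher with IL2 and 0 lower (median log2 fold change 1.59). Their summed linear intensity was 25143 to 30630 with IL2 and 7345 to 11804 untreated. Of 13 macrophage and monocyte markers, 0 were higher and 8 lower (median -1.10), with sums of 4229 to 6013 with IL2 and 14258 to 15424 untreated. Of 11 T cell markers 0 were called either way by limma, 0 also at an unadjusted p under 0.05 (median -0.05), with sums of 1638 to 2946 with IL2 and 1786 to 2802 untreated. Within both groups the T cell sum was higher on the arrays whose titles give the culture time (replicates 3 and 4; 2857 to 2946 with IL2 and 2307 to 2802 untreated) than on those whose titles do not (replicates 1 and 2; 1638 to 1737 with IL2 and 1786 in the untreated array). Basophil and mast cell markers split the same way (1307 to 1727 against 726 to 833 with IL2, and 1173 to 1249 against 755 untreated), and 0 of 7 were called by limma (1 higher at an unadjusted p under 0.05). Of 7 B cell markers 0 were called by limma (3 lower at an unadjusted p under 0.05; sums of 12548 to 13182 with IL2 and 14203 to 15795 untreated). Of 8 neutrophil markers 1 was lower by limma (6 at an unadjusted p under 0.05; median -0.82), with sums of 1874 to 3007 with IL2 and 4677 to 6134 untreated. Of 8 dendritic cell markers 1 was lower (4 at an unadjusted p under 0.05; median -0.16), with sums of 3522 to 4305 with IL2 and 4681 to 5536 untreated. Of 3 markers of helper innate lymphoid cells 1, Il7r, was lower by limma (-1.71), with sums of 645 to 937 with IL2 and 1250 to 1303 untreated. The others went the other way and were not called, with Gata3 at 0.78 and Il17rb at 0.08. At an unadjusted p under 0.05, 1 was higher and 1 lower, and the median was 0.08. The part of these shifts in the results below was not tested, and in bulk RNA fewer cells of a type and less RNA per cell cannot be told apart.

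**Figure D1:**
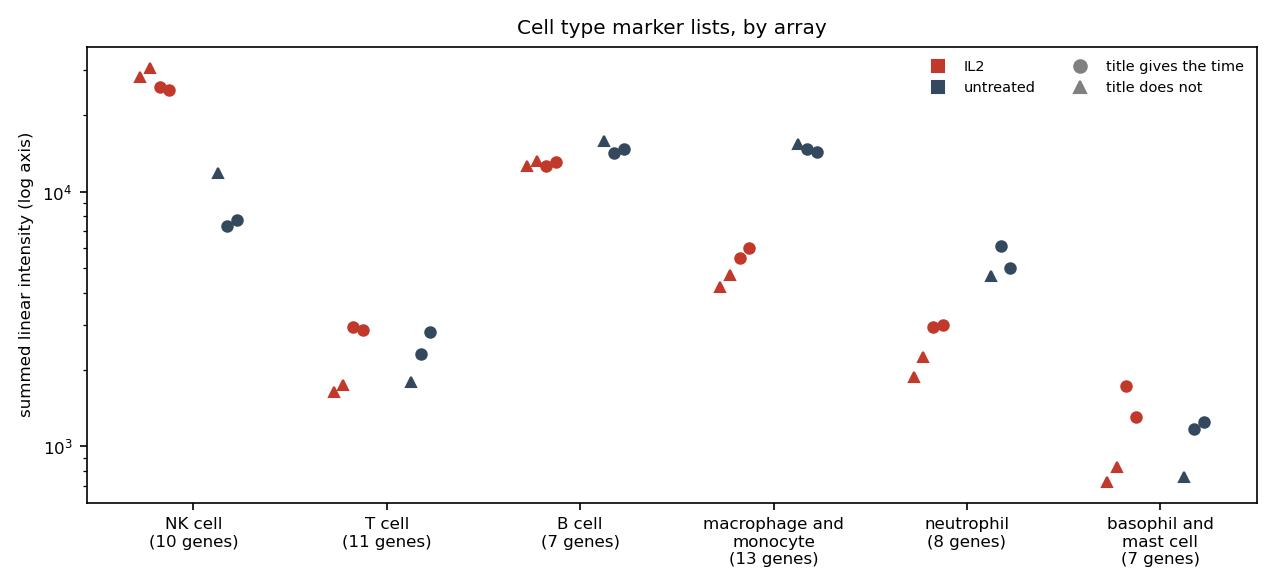
Summed linear RMA intensity of 6 cell type marker lists on a log axis, 1 symbol per array, IL2 (red) left of untreated (dark); circles are arrays whose titles give the time and triangles those whose titles do not. NK cell sums lie between 25143 and 30630 with IL2 and between 7345 and 11804 untreated, macrophage and monocyte sums run the other way, and T cell and basophil sums separate the circles from the triangles.

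After 8 h with IL2, Tigit and Icos were more than 2-fold higher than in untreated cells, and the other 8 receptor genes did not pass the test. Cd160 and Cd226 came next, at 1.61-fold and 1.35-fold. Cd96 had a fold of 0.98, and Pdcd1 and Havcr2 had folds of 0.84 and 0.83. Calls were made by limma with Benjamini-Hochberg correction over all genes at an adjusted p under 0.05. Of the 10 receptor genes 2 were higher, where 2.08% of all genes were, and 0 were lower, where 0.901% were. At an unadjusted p under 0.05, 4 were higher and 1 was lower. The share of all genes at that unadjusted threshold was not counted, here or for the other lists. In either direction 2 of 10 were called at the adjusted p, against 2.98% of all genes. The same 2 were at least 2-fold higher, against 1.12%. After quantile normalization again both were still called, with log2 fold changes of 1.10 for Tigit and 0.998, just under 2-fold, for Icos. All IL2 arrays lay above all untreated arrays for 3 of the 10 (6.25% of all genes) and below them for 1 (3.38%), so that 4 of 10 did not overlap in either direction (9.63%). A positive log2 fold change, without a test, was seen for 7 of 10 (45.5% of all genes). The median log2 fold change was 0.23 over the 10 genes and -0.01 over all genes. The choice of these genes was made with earlier results known, so that these counts are a description of the list.

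**Figure D2:**
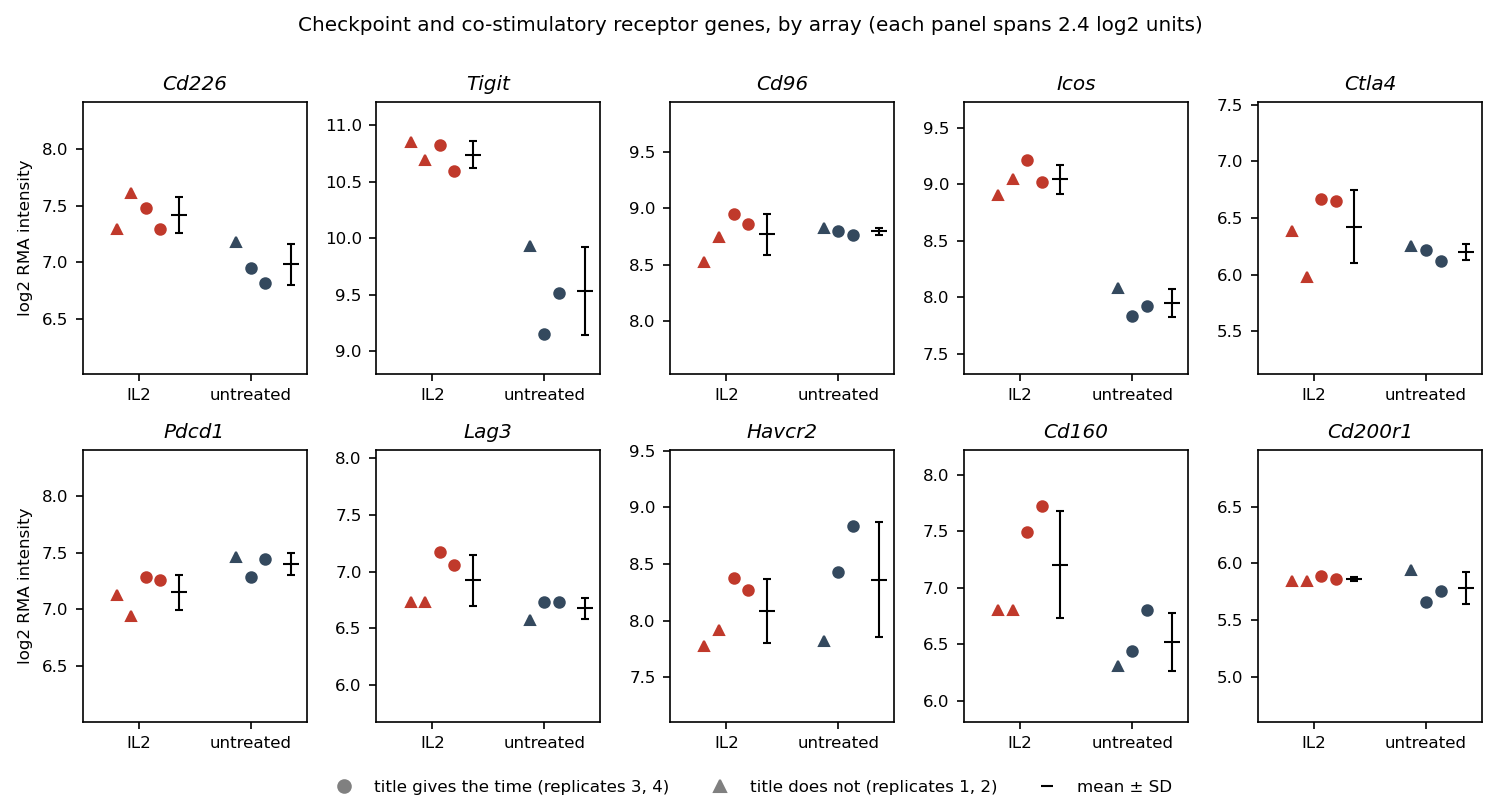
Log2 RMA intensity of each receptor gene on every array, IL2 (red) left of untreated (dark), with the mean and SD of the group beside the points; every panel spans the same height. The groups are apart for Tigit, Icos and Cd226 (IL2 above) and narrowly for Pdcd1 (IL2 below), while for Cd160, Lag3 and Havcr2 circles (replicates 3 and 4) and triangles (replicates 1 and 2) of the same group sit at different heights.

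Of the receptors for nectin-family ligands, the inhibitory Tigit rose. Tigit had log2 intensities of 10.85, 10.69, 10.82 and 10.59 with IL2, against 9.93, 9.15 and 9.52 untreated. The lowest IL2 array stood above the highest untreated array, and the untreated arrays were the more spread. The means were 10.74 ± 0.12 with IL2 (SD, n = 4) and 9.53 ± 0.39 untreated (n = 3), and on the log2 scale the gene rose by 1.21 with an SE of 0.17 (limma adjusted p = 0.0131). Within the arrays whose titles give the time the difference was 1.37 (limma adjusted p = 0.0822 over those 4 arrays). Within the others, with 1 untreated array, it was 0.84. NK cell markers rose over the same 7 arrays (6 of 10, median 1.59), and their part in the value of Tigit was not tested. The call of Tigit ended without IL2 replicate 2, IL2 replicate 3 or untreated replicate 4 (limma adjusted p of 0.0584, 0.0602 and 0.0771), with a log2 fold change between 1.02 and 1.40 when single arrays were omitted.

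Cd226, the activating receptor of this group (DNAM-1), had log2 intensities of 7.29, 7.61, 7.48 and 7.29 with IL2, against 7.18, 6.95 and 6.82 untreated. The groups did not overlap, but the gap between them was small beside the spread within each. The difference was 0.44 (SE 0.12, 95% interval 0.16 to 0.72 before correction), which did not pass the test (limma adjusted p = 0.133). It was 0.50 and 0.27 within the titles with and without the time.

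Cd96, which like TIGIT binds the poliovirus receptor, had 8.52, 8.74, 8.95 and 8.86 with IL2, against 8.83, 8.80 and 8.77 untreated. The untreated arrays differed by less than 0.1 and the IL2 arrays lay on both sides of them. On the log2 scale the difference was -0.03 (95% interval -0.28 to 0.23, limma adjusted p = 0.953), so that a change of 1 on this scale lies outside the interval. Its sign was not stable: it was 0.12 within the titles that give the time, -0.19 within the others, and just above 0 when arrays were centred on their medians (0.002).

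The differences between these receptors on the same array were also compared. The log2 value of Tigit minus that of Cd226 was 3.32 ± 0.20 with IL2 (SD, n = 4) and 2.55 ± 0.30 untreated (n = 3), a shift of 0.77. Tigit minus Cd96 was 1.97 ± 0.25 with IL2 and 0.74 ± 0.37 untreated, a shift of 1.23. Cd96 minus Cd226 was 1.35 ± 0.20 with IL2 and 1.82 ± 0.15 untreated, a shift of -0.46. The levels of these differences have no meaning, since probes of different genes differ in brightness at equal RNA. The shifts have a limit too. Untreated means of Cd226 (6.98) and of Ctla4 (6.20) lay near or below the median gene (6.92), where signal separates less well from background. The part of this in the shifts was not tested. The 3 shifts are not independent, since any 1 of them follows from the others. For all 3, and for Icos minus Ctla4 below, every IL2 array lay on one side of every untreated array, and the exact two-sided permutation test over the 35 arrangements of the arrays gave p = 0.0571 (also 0.0571 after Benjamini-Hochberg correction over the 4), the smallest p that 4 arrays against 3 allow. The shifts kept their sign within both kinds of title, at 0.87 and 0.57, 1.25 and 1.04, and -0.38 and -0.47.

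Of the CD28 family, the co-stimulatory receptor Icos rose and the inhibitory members did not pass the test. Icos had log2 intensities of 8.90, 9.05, 9.21 and 9.02 with IL2, against 8.08, 7.84 and 7.93 untreated. Both groups were tight, and the lowest IL2 array stood clear of the highest untreated array. The means were 9.04 ± 0.13 with IL2 (SD, n = 4) and 7.95 ± 0.12 untreated (n = 3), and on the log2 scale the gene rose by 1.10 with an SE of 0.10 (limma adjusted p = 0.0018). Omitting any single array kept the call (1.04 to 1.16, limma adjusted p of 0.0046 to 0.0168). The difference was 1.23 within the titles that give the time (limma adjusted p = 0.0599 over those 4 arrays) and 0.89 within the others. ICOS is best known from T cells, and 0 of 11 T cell markers were called by limma (0 also at an unadjusted p under 0.05), with sums of 2857 to 2946 with IL2 and 2307 to 2802 untreated within the titles that give the time, and of 1638 to 1737 with IL2 and 1786 untreated within the others. NK cell markers rose for 6 of 10. The part of either cell type in the value of Icos was not tested.

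Ctla4 had 6.39, 5.98, 6.67 and 6.65 with IL2, against 6.26, 6.22 and 6.12 untreated. The IL2 arrays spread around the untreated ones, with replicates 1, 3 and 4 above all of them and replicate 2 below. The log2 fold change was 0.22 (95% interval -0.17 to 0.62, limma adjusted p = 0.675), and it was 0.49 within the titles that give the time and -0.07 within the others. Among the IL2 arrays, Ctla4 and the T cell marker sum were both higher on replicates 3 and 4 than on replicates 1 and 2, whereas among the untreated arrays Ctla4 was lower on replicates 3 and 4 and the T cell sum higher; the part of T cells here was not tested. Ctla4 and Icos are direct neighbours on chromosome 1 in RefSeq, with 0 protein-coding genes between them. The log2 value of Icos minus that of Ctla4 was 2.62 ± 0.31 with IL2 (SD, n = 4) and 1.75 ± 0.12 untreated (n = 3), a shift of 0.87 (exact permutation p = 0.0571). Mean log2 intensities over the arrays lay below the median of all genes (6.92) for Ctla4, Lag3, Cd160 and Cd200r1, where the array separates signal from background less well.

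Pdcd1, which encodes PD-1, had 7.12, 6.94, 7.28 and 7.26 with IL2, against 7.47, 7.28 and 7.44 untreated. Every IL2 array was below every untreated array, but IL2 replicate 3 and untreated replicate 3 differed by less than 0.01. The log2 fold change was -0.25 (95% interval -0.49 to -0.002 before correction, limma adjusted p = 0.366). It was -0.09 within the titles that give the time and -0.43 within the others.

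**Figure D3:**
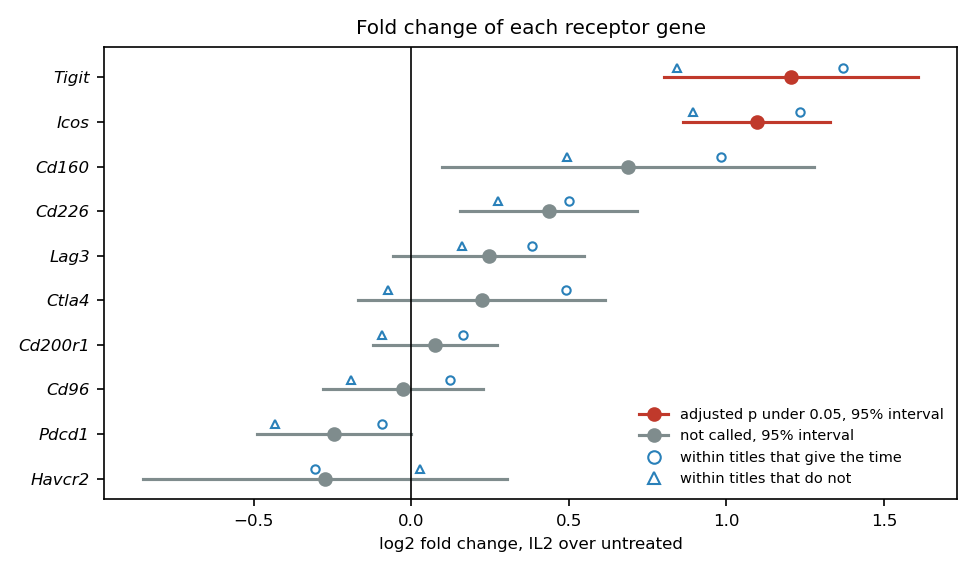
Log2 fold change of IL2 over untreated for each receptor gene, with the uncorrected 95% interval of the limma fit (red, called; grey, not called) and the difference within the arrays whose titles give the time (open circles) and within those whose titles do not (open triangles). Tigit at 1.21 and Icos at 1.10 are the called genes, and Ctla4, Cd200r1, Cd96 and Havcr2 have open symbols on both sides of 0.

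Among the remaining receptors Cd160 had the largest difference. Cd160, whose product binds the TNF receptor family member HVEM, had 6.81, 6.81, 7.49 and 7.72 with IL2, against 6.31, 6.44 and 6.81 untreated. IL2 replicates 1 and 2 shared an equal value with untreated replicate 4, so that the groups met at that point. The log2 fold change was 0.69 (SE 0.25, limma adjusted p = 0.278), and it did not pass the test. Within each kind of title, however, the IL2 arrays lay above the untreated ones, by 0.98 where the title gives the time and by 0.50 where it does not. With the style of title as a block in the fit the log2 fold change was 0.79 and passed the test (limma adjusted p = 0.0338). T cell and basophil marker sums differed between the same kinds of title, and their part was not tested.

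Lag3, a receptor for MHC class II that restrains T cells, had 6.73, 6.73, 7.17 and 7.05 with IL2, against 6.57, 6.73 and 6.73 untreated. Equal values of 6.73 stood on 4 of the 7 arrays, and IL2 replicates 3 and 4 were the arrays above that level. Its difference on the log2 scale was 0.24 (95% interval -0.06 to 0.55, limma adjusted p = 0.51), at 0.38 and 0.16 within the titles with and without the time.

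Havcr2, the TIM-3 gene, had 7.78, 7.92, 8.38 and 8.27 with IL2, against 7.82, 8.42 and 8.83 untreated. Replicates 3 and 4 were higher than replicates 1 and 2 in both groups, and the groups overlapped. The log2 fold change was -0.27 (95% interval -0.85 to 0.30, limma adjusted p = 0.737), the widest interval but for that of Cd160. Omitting untreated replicate 2 moved it to -0.54, and omitting untreated replicate 4 to -0.04. TIM-3 is also known from dendritic cells and macrophages, and macrophage and monocyte markers fell over the same arrays (8 of 13), the part of which was not tested.

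Cd200r1, an inhibitory receptor best known from myeloid cells, had 5.85, 5.85, 5.88 and 5.86 with IL2, against 5.94, 5.66 and 5.75 untreated. The IL2 arrays lay close together and inside the untreated range, and IL2 replicates 1 and 2 held an equal value. The fitted difference was 0.08 (95% interval -0.12 to 0.27, limma adjusted p = 0.799). Its sign was negative within the titles that do not give the time (-0.09). The mean of Cd200r1 lay below the median of all genes, where a change is harder to see. The median over markers of macrophages and monocytes was -1.10, and their part here was not tested.

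The ligand genes of these receptors were measured in the same cells. By limma 1 of 16 was called higher and 0 lower, against 2.08% and 0.901% of all genes. At an unadjusted p under 0.05, 4 were higher and 3 lower. Cd274, which encodes the PD-1 ligand PD-L1, had 9.93, 10.24, 10.17 and 10.12 with IL2, against 8.68, 8.72 and 8.88 untreated. It rose by 1.36 (SE 0.10, limma adjusted p = 0.00105), with the groups far apart, while the gene of its receptor, Pdcd1, was not called. The call of Cd274 held when any single array was omitted, and also for replicates 3 and 4 by themselves (1.35, limma adjusted p = 0.0446). The following ligands were chosen after their values were seen. Lgals9, which encodes the TIM-3 ligand galectin-9, was at 1.15 on the log2 scale with an SE of 0.24 (limma adjusted p = 0.0502) and Pdcd1lg2, which encodes the other PD-1 ligand, 0.81 (SE 0.17, limma adjusted p = 0.052), just outside the threshold. Lgals3 (-1.18, limma adjusted p = 0.107) and Ceacam1 (-1.02, limma adjusted p = 0.107), ligands of LAG-3 and TIM-3, were lower on every IL2 array and not called. Pvr, the shared ligand of CD226, TIGIT and CD96, was at 0.18 (limma adjusted p = 0.69), and Nectin2 and Icosl were at -0.01 and -0.18. The median over the 16 ligands was 0.06. The count of called ligands was sensitive to the settings: it was 4 higher and 3 lower after quantile normalization again.

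Of 13 other inhibitory and co-stimulatory receptors, 4 were higher and 2 lower at an unadjusted p under 0.05 (median 0.00). They were taken from the same and from further families. By limma 2 were higher and 0 lower, against 2.08% and 0.901% of all genes. Both belong to families other than the nectin-binding and CD28 ones. Cd244a, the SLAM family receptor 2B4, had 9.56, 9.88, 9.09 and 9.37 with IL2, against 8.28, 7.46 and 7.87 untreated. It rose by 1.60 (SE 0.23, limma adjusted p = 0.0132), and the call ended without IL2 replicate 4 or untreated replicate 4 (0.0523 and 0.0801). Klrg1, an inhibitory lectin receptor of mature NK cells, had 8.41, 8.60, 8.40 and 8.41 with IL2, against 7.89, 7.19 and 7.58 untreated. It rose by 0.90 (SE 0.16, limma adjusted p = 0.0265), and the call ended without IL2 replicate 2, 3 or 4 or untreated replicate 4 (0.0909 to 0.111). Cd28 itself was at -0.03 and Vsir, an inhibitory receptor gene, at -0.68 (limma adjusted p = 0.145; both chosen after their values were seen).

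Of 21 signalling proteins of these receptors, 4 were higher and 0 lower at an unadjusted p under 0.05 (median 0.16). By limma 2 were higher and 0 lower, against 2.08% and 0.901% of all genes. Prkcq, the protein kinase C isoform that carries co-stimulatory signals in T cells, had 10.06, 10.24, 10.18 and 10.12 with IL2, against 9.02, 8.58 and 8.98 untreated. It rose by 1.29 (SE 0.12, limma adjusted p = 0.00195). Dok2, an adaptor that dampens tyrosine kinase signalling, rose by 1.03 (SE 0.14, limma adjusted p = 0.00972), and its call ended without untreated replicate 4 (0.054). The phosphatase genes Ptpn6, Ptpn11 and Inpp5d, whose products act at inhibitory receptor tails, had log2 fold changes of 0.09, 0.18 and -0.15 and were not called (chosen after their values were seen).

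Of 18 transcription factors linked to these genes, 9 were higher and 0 lower at an unadjusted p under 0.05 (median 0.40). By limma 2 were higher and 0 lower, against 2.08% and 0.901% of all genes. Tbx21, which encodes T-bet, a factor that NK cells need to mature, had 9.95, 10.27, 10.31 and 10.30 with IL2, against 9.09, 8.46 and 8.82 untreated. It rose by 1.42 (SE 0.16, limma adjusted p = 0.00473). Nr4a3, an orphan nuclear receptor induced by antigen receptor signals in T cells, rose by 0.97 (SE 0.19, limma adjusted p = 0.0453), and this call ended without any 1 array other than untreated replicate 2 (0.0632 to 0.175). It also ended with the replicate number as a block (1.02, limma adjusted p = 0.0967) and with title style as a block (0.96, limma adjusted p = 0.0569). Tox, known for exhausted T cells, was at 0.11 (limma adjusted p = 0.793; chosen after its value was seen). The transcription factor and NK cell marker lists share Eomes, and macrophage and monocyte markers fell over the same arrays (8 of 13) while NK cell markers rose (6 of 10), the part of which in these 4 lists was not tested.

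**Figure D4:**
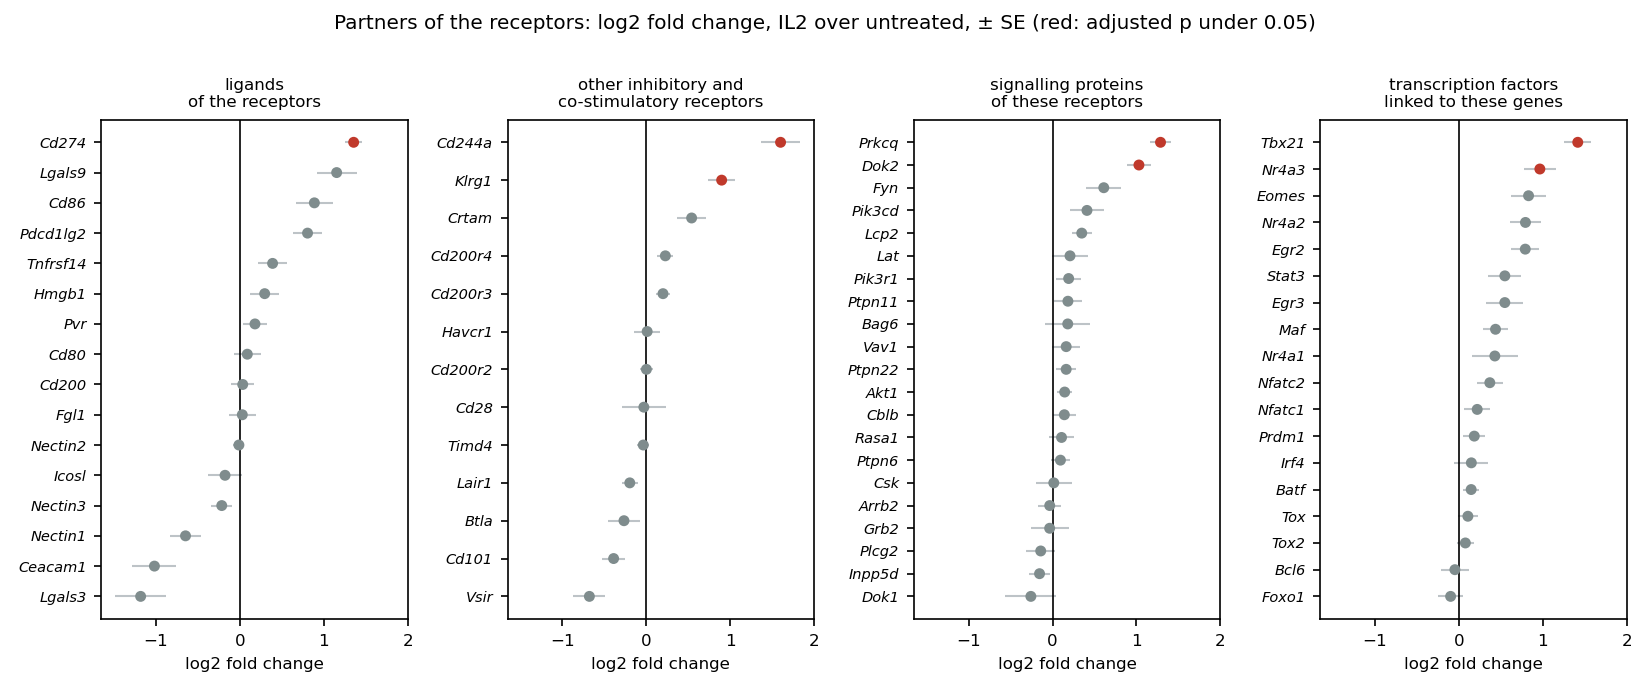
Log2 fold change of IL2 over untreated (points) with its SE (lines) for the measured genes of 4 lists, red where the limma adjusted p was under 0.05. Cd274, Cd244a, Klrg1, Prkcq, Dok2, Tbx21 and Nr4a3 are the called genes, and ligands lie on both sides of 0, between -1.18 and 1.36.

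Genes whose log2 values followed a receptor gene most closely over the 7 arrays were found by Pearson's r among 9875 other genes at or above the median signal, as a description, since all genes share the arrays and the IL2 contrast. For Tigit they were Il12rb2 (r = 0.992), an interleukin 12 receptor chain, Ifi213 (0.991) and Trgv1 (0.99). Their log2 fold changes were 1.53, 2.02 and 1.26. For Icos they were Zbp1 (0.997), a sensor of Z-form nucleic acid, Ccl3 (0.996), a chemokine gene, and P2ry14 (0.996), a receptor for UDP-sugars. These rose by 2.96, 2.80 and 2.11, more than Icos did. For Cd226 they were Slc17a9 (0.996), BC029722 (0.995) and Adh5 (0.99), none of them called. For Cd96, Havcr2 and Pdcd1 the closest genes were Zc3h14 (0.98), Nrgn (0.99) and Mib2 (0.959).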

How the data were processed

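RNA of 7 samples on Affymetrix Mouse Gene 1.0 ST arrays was used (4 IL2, 3 untreated, grouped by their titles). All of these titles end in the word "reanalyzed". The deposited values are linear intensity per probe set and array, made by the authors with RMA in Affymetrix Power Tools according to the submitters' processing notes. Versions, settings and which arrays were normalized together are not given in the sources used here. Of 24922 probes, 21425 had 1 gene symbol in the platform annotation, and the brightest was kept for each of 19752 genes, with no filter on signal. Log2 values were fitted in limma 3.58.1 (R 4.3.3) with group as the factor and default eBayes, with Benjamini-Hochberg correction over all genes at 0.05. The fit was also run on simulated data with independent noise for each gene and array. That simulation held neither equal values nor a split by title style, so it does not test the p-values under them. Arrays of a group held exactly equal values for 38.8% of genes (4 of the 10 receptor genes), which lowers the measured spread; the number of arrays limits the precision.

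The receptor genes, lists and tests were chosen with earlier results of these data known. Named genes were the receptor genes, in each pathway list the called genes with the largest change (at most 4), in each marker list the brightest untreated and the most changed called gene, and the 3 genes closest in pattern to each receptor gene at or above the median signal. Not every marker gene taken by this rule is described above. Ncr1 and Klrb1c were added as defining markers and Gata3 and Il17rb as the rest of their measured list. Others are marked where chosen later. List genes without a probe of their own are not analysed here. The alternatives were a block for replicate number or for title style, fits within each title style, renewed quantile normalization, median centring, a filter at the median signal, trended and robust eBayes, array weights, the mean of a gene's probes, all probes singly, and each array omitted.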

Additional observations from a re-analysis of the deposited data

Results flagged for a closer look

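Among the IL2 arrays, of which there were 4, the gap between 1 array and its nearest neighbour took up nearly the whole range of the group for a pair of genes. Klrg1 stood at 8.60 in IL2 replicate 2, while the others lay between 8.40 and 8.41, and without that array its call ended. Tbx21 stood at 9.95 in IL2 replicate 1, while the others lay between 10.27 and 10.31. Chance flags about 1 group in 20 by this rule, and 2 of 28 genes examined were flagged. None of the 10 receptor genes was among them.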

How the results depend on the processing

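Icos kept its call in every fit but those within 1 title style, and Tigit also lost it without IL2 replicate 2 or 3 or untreated replicate 4; these fits have fewer arrays, and other causes were not tested. Of 166 alternative values for the receptor genes, 149 kept direction and call, 7 lost the call, 2 gained it and 8 changed sign. Part of this tally was fixed in advance. Each receptor gene has 1 probe, so the mean of probes repeats its value. The median filter and the trended eBayes leave fold changes as they were. Only Tigit and Icos had a call to lose, and they lost it in 5 of 17 and 2 of 17 alternatives. Deviations of same-numbered arrays correlated at 0.258, -0.114 and 0.317, and those of differently numbered arrays between -0.470 and 0.280. Whether replicate numbers pair the samples is not labelled, and these few values do not settle it. In the main fit the T cell marker Cd3e was at 0.0058, the basophil and mast cell marker Prss34 at -0.018 and Cd96 at -0.028. With the replicate block 554 genes were higher and 184 lower, and 3 receptor genes were higher, the added one being Cd160 (0.82, limma adjusted p = 0.0424); 3 ligands were then higher and 1 lower, Nr4a3 lost its call (0.0967), Cd96 was at 0.054 and Prss34 at 0.21. With title style as a block 3 ligands were higher and 1 lower, 4 transcription factors were higher though Nr4a3 was not (0.0569), and Prss34 was at 0.21. Within titles that give the time 81 genes were higher and 22 lower, with 0 receptor genes, 0 other receptors, 0 signalling genes and 0 transcription factors by limma, Cd96 at 0.12 and Prss34 at 0.33. Within titles that do not, with 1 untreated array, only effect sizes are given. There Havcr2 was at 0.026, Ctla4 at -0.074, Cd200r1 at -0.092, Cd3e at -0.11 and Prss34 at 0.038. Quantile normalization again gave 694 genes higher and 577 lower (54.6% of calls higher, against 69.7% of the 410 and 178 as reported), 4 ligands higher and 3 lower, 1 other receptor lower, 5 transcription factors higher and Cd3e at -0.13. Centring on medians gave 3 ligands higher, Cd96 at 0.0020 and Prss34 at 0.013. Genes at or above the median signal gave 4 ligands higher and 2 lower and 5 transcription factors higher. Trended and robust eBayes gave 3 ligands higher, array weights 3 with Cd96 at 0.013, and the mean of probes 2. With single arrays omitted, genes higher ranged between 134 and 517 and genes lower between 65 and 152, receptor genes higher between 1 and 2, ligands higher between 1 and 3, other receptors between 0 and 2, signalling genes between 1 and 2, and transcription factors between 1 and 4. Over the same omissions Havcr2 ranged between -0.54 and -0.038, Ctla4 between 0.14 and 0.37 and Cd200r1 between 0.013 and 0.15. Lag3 ranged between 0.16 and 0.31 and Cd96 between -0.089 and 0.054. Cd3e ranged between -0.20 and 0.23 and Prss34 between -0.42 and 0.28. The differences between receptors kept their sign, with exact permutation p of 0.1 to 0.133, the smallest p that the remaining arrays allow. The number of arrays limits the precision.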
